A study of Homo sapiens with 6 samples.

Results

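Hemidesmosomes are the junctions through which a basal keratinocyte holds on to the basement membrane, and laminin-332 is the basement membrane protein to which they bind. The genes described here are 9 members of this adhesion apparatus, *ITGA6*, *ITGB4*, *ITGA3*, *COL17A1*, *LAMA3*, *LAMB3*, *DST*, *PLEC* and *CD151*, out of 21475 genes with an expression value. They were taken by symbol from a list of genes for adhesion of basal keratinocytes to the basement membrane, by mapping the Ensembl identifiers of the rows with GENCODE. All 9 were found. Genes were tested if their mean level reached 0.5 FPKM, as it did for all 9 and for 12241 genes in all. RNA was sequenced from 3 wild-type (WT) and 3 *FGFR2* knockout (KO) lines of HaCaT, a spontaneously immortalized human keratinocyte cell line, with 1 library per line. *FGFR2* encodes a receptor for fibroblast growth factors, and the KO lines carry a CRISPR/Cas9 disruption of it, the only altered gene that is given. The values were deposited as FPKM, that is, fragments per length of transcript and depth of library. They allow for length and depth, but comparisons between libraries still depend on the scaling, as given below.

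The lines were grown in medium with serum, and no stimulus is given for these samples. Each KO line descends from 1 sorted cell, whereas the WT lines of the study comprised the starting population as well as clones grown from sorted control cells, so a difference between lines can be a difference between clones. The sample labels do not tie the WT replicates to these lines, so whether any replicate is the starting population is not known from them. The paper describes the HaCaT lines whose sequencing values it plots as clonally expanded. As each line gave 1 library, the tests below measure the spread between these libraries. A difference between lines cannot be told apart from one of culture, RNA or library preparation.

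In a hemidesmosome, integrin α6β4, a pair of the chains encoded by *ITGA6* and *ITGB4*, spans the membrane next to type XVII collagen, encoded by *COL17A1*. Outside the cell both meet laminin-332, whose chains include those encoded by *LAMA3* and *LAMB3*. Inside the cell the plakins plectin (*PLEC*) and BPAG1e, a product of *DST*, connect the membrane proteins with the keratin filaments. The tetraspanin CD151 associates with the laminin-binding integrins, among them α3β1, whose α chain is encoded by *ITGA3* and which is found in focal adhesions rather than in hemidesmosomes. Inherited loss of several of these proteins leads to epidermolysis bullosa, a disease in which the skin blisters.

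The libraries held an estimated 67700000 to 87900000 fragments. *FGFR2*, the targeted gene, had 21.6, 39.7 and 15.0 FPKM in the WT lines, by replicate number, against 3.04, 2.26 and 4.31 FPKM in the KO lines. All KO libraries lay below all WT libraries, with a log2 fold change of -2.73 (SE 0.36). The limma test gave an adjusted p of 0.261 for *FGFR2*, and no tested gene had a smaller one. All 9 markers of basal keratinocytes were detected in each library, with summed levels of 15671 to 18978 FPKM in WT and 16346 to 27913 FPKM in KO. The share of the FPKM sum taken by mitochondrial genes was 27.6%, 21.5% and 22.2% in the WT libraries and 15.8%, 23.7% and 11.9% in the KO libraries.

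The 9 genes were strongly expressed in both genotypes, and for all but *LAMA3* the group means differed by less than the SD over the WT lines. Their log2 fold changes, KO against WT, lay between -0.17 for *LAMB3* and 0.52 for *LAMA3*, with a median of 0.01, while the median over all 12241 tested genes was 0.09. The mean was higher in KO for 5 of the 9 genes and lower for 4, a split that scaling moved to between 2 and 7 genes higher, whereas it was higher for 60.6% of all tested genes. A gene was called if its adjusted p was 0.05 or less and its log2 fold change 0.5 or more in size. None of the 9 met this rule and neither did any other gene, so 0 of 12241 genes (0%) were called with limma. With DESeq2, a count model that was not run here, the paper reports genes that pass these thresholds, *FGFR2* among the lowered ones. At an unadjusted p of at most 0.05 and the same minimum fold, 1 member was higher in KO, *LAMA3*, against 10.2% of all tested genes, and 0 were lower, against 2.33%. *LAMA3* was also the only member whose KO libraries all lay above its WT libraries, a pattern shown by 18.3% of tested genes, and 0 members had all KO libraries below WT, as 5.77% of tested genes had. For a list of 9 genes, counts of 1 and 0 are close to these background shares. The plot of fold changes shows the intervals.

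**Figure D1:**
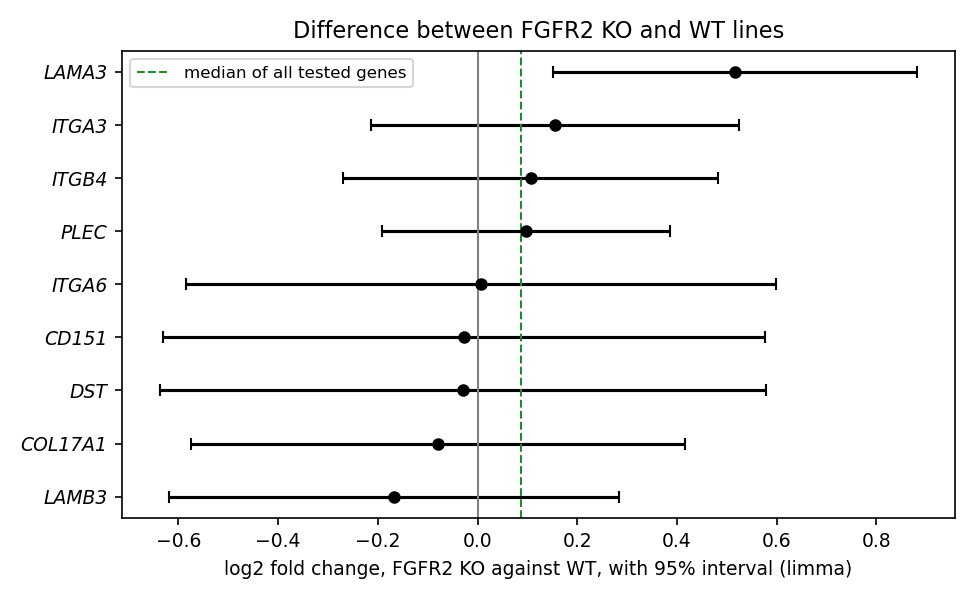
Log2 fold change of FGFR2 KO against WT for the 9 genes (points: limma estimate on log2(FPKM + 0.5); bars: 95% interval; n = 3 lines per group; dashed line: median of all tested genes, 0.09). The interval of LAMA3, 0.15 to 0.88, lies above 0 before adjustment over all genes, and the intervals of the other 8 genes include 0.

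*ITGA6* (ENSG00000091409, chromosome 2, 172427354 to 172506459 in GRCh38), the α chain of the hemidesmosomal integrin, was at 741, 464 and 846 FPKM in WT replicates 1, 2 and 3 and at 764, 683 and 567 FPKM in KO replicates 1, 2 and 3. The group means were 684 ± 197 and 671 ± 99.3 FPKM (SD, n = 3 lines each), and all KO values fell between the lowest and the highest WT value. The log2 fold change was 0.01 (SE 0.25), with a limma 95% interval from -0.58 to 0.60 and an adjusted p of 0.992. A difference of up to that size in either direction is therefore compatible with these libraries. Its partner *ITGB4* (ENSG00000132470, chromosome 17, 75721328 to 75757818), whose long cytoplasmic tail binds plectin, was at 398, 361 and 298 FPKM in WT and at 356, 405 and 370 FPKM in KO. The means were 352 ± 50.9 and 377 ± 25.3 FPKM, and the log2 fold change was 0.11 (SE 0.16, limma adjusted p = 0.751). The highest value of *ITGB4* was in a KO library and the lowest in a WT library, and the groups overlapped.

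*ITGA3* (ENSG00000005884, chromosome 17, 50055968 to 50090481), the α chain that pairs with the β1 chain in the other laminin-332 receptor of keratinocytes, was at 327, 352 and 259 FPKM in WT. Its KO values were 346, 341 and 350 FPKM, with an SD of 4.39 FPKM against 47.8 FPKM in WT. The coefficient of variation was thus 1.27% over the KO lines, whose values all lay inside the WT range. The log2 fold change was 0.16 (SE 0.16, limma adjusted p = 0.630). *CD151* (ENSG00000177697, chromosome 11, 832887 to 839831), the tetraspanin that associates with both integrins, was at 126, 246 and 142 FPKM in WT and at 187, 145 and 153 FPKM in KO. Here WT replicate 2 stood above all other libraries and WT replicate 1 below them. The means of 171 ± 65.3 and 162 ± 22.0 FPKM differed by a log2 fold change of -0.03 (SE 0.26, limma adjusted p = 0.968). The 716 tested genes of chromosome 11 had a median deviation from their mean over the libraries of 0.22 in WT replicate 2, in log2. It was -0.14 in WT replicates 1 and 3, and the part of this shift in the levels of *CD151* was not tested.

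*COL17A1* (ENSG00000065618, chromosome 10, 104031286 to 104085880), the collagen that spans the membrane of the hemidesmosome, was at 811, 568 and 905 FPKM in WT and at 714, 772 and 641 FPKM in KO. Its means were 761 ± 174 and 709 ± 65.7 FPKM, and its KO libraries lay inside the WT range. The log2 fold change was -0.08 (SE 0.21, limma 95% interval -0.58 to 0.42, adjusted p = 0.870). *COL17A1* lies on chromosome 10, as *FGFR2* does, and the 463 tested genes of this chromosome had a median deviation from their mean over the libraries of -0.27 in KO replicate 1 and 0.24 in WT replicate 2 on the log2 scale. After subtraction of the chromosome medians, *COL17A1* had a log2 fold change of 0.07, so the sign of this small difference depends on that step.

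The plakins were the least abundant members per length. *PLEC* (ENSG00000178209, chromosome 8, 143915153 to 143976734), encoding plectin, which binds the β4 tail and the keratin filaments, was at 44.7, 42.4 and 49.96 FPKM in WT and at 49.5, 49.6 and 47.3 FPKM in KO. With means of 45.7 ± 3.87 and 48.8 ± 1.29 FPKM it was the member with the smallest spread over the WT lines. Its log2 fold change was 0.10 (SE 0.12, limma 95% interval -0.19 to 0.39, adjusted p = 0.702), the narrowest interval of the 9. *DST* (ENSG00000151914, chromosome 6, 56457987 to 56954830) was at 34.2, 28.6 and 54.1 FPKM in WT and at 29.98, 45.8 and 36.3 FPKM in KO. The means were 39.0 ± 13.4 and 37.4 ± 7.97 FPKM, and the log2 fold change was -0.03 (SE 0.26, limma adjusted p = 0.965). The highest and the lowest value of *DST* were both in WT lines. The locus makes epithelial, neuronal and muscle isoforms and has 41 annotated transcripts in GENCODE, all pooled in this value, so the level of the epithelial BPAG1e cannot be told apart from that of the others.

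*LAMA3* (ENSG00000053747, chromosome 18, 23689453 to 23956222), the α3 chain that carries the integrin-binding end of laminin-332, had the largest difference of the members. It was at 47.0, 55.7 and 60.4 FPKM in WT and at 77.2, 68.5 and 88.3 FPKM in KO, and the groups did not overlap. The means were 54.3 ± 6.81 and 78.0 ± 9.95 FPKM, a ratio of 1.43. The log2 fold change was 0.52 (SE 0.16, limma 95% interval 0.15 to 0.88), with an unadjusted limma p of 0.0118 and an adjusted p of 0.261. The exact two-sided permutation test gave p = 0.1, the smallest value that 3 lines against 3 can give. With library weights, which rested on WT replicate 1, limma called *LAMA3* at a log2 fold change of 0.66 and an adjusted p of 0.0314, as 1 of 1396 genes. In these bulk libraries, more cells with *LAMA3* RNA and more of it per cell cannot be told apart. *LAMB3* (ENSG00000196878, chromosome 1, 209614870 to 209652425), the β3 chain, was at 281, 384 and 245 FPKM in WT and at 270, 285 and 242 FPKM in KO, with means of 303 ± 72.6 and 266 ± 22.0 FPKM. Its log2 fold change of -0.17 (SE 0.19, limma adjusted p = 0.673) was the lowest of the members, and the WT and KO values overlapped, WT replicate 2 lying above all other libraries.

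**Figure D2:**
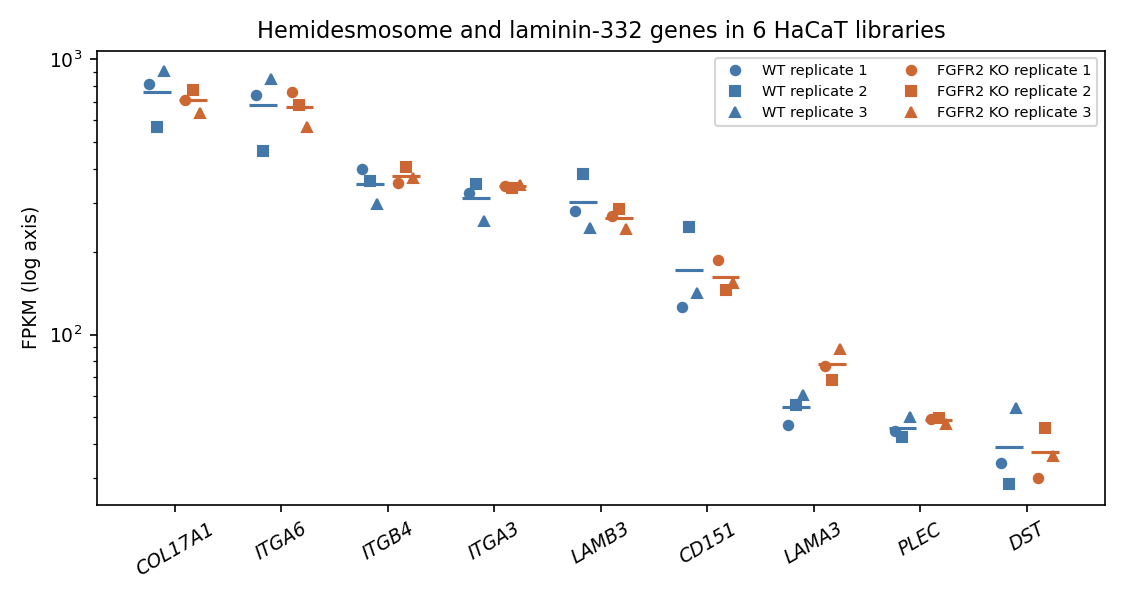
Level of the 9 genes in each library (y axis: FPKM on a log axis; blue: WT lines; orange: FGFR2 KO lines; marker shape: replicate number; horizontal bars: group means, n = 3). The KO lines of LAMA3, 68.5 to 88.3 FPKM, lie above its WT lines, 47.0 to 60.4 FPKM, and the groups overlap for every other gene shown.

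Promoter sequences of 5 members (*ITGA6*, *COL17A1*, *LAMA3*, *LAMB3* and *DST*) were found in the RefSeq table used here, as 10 windows that run from 250 bases before to 50 bases after a start site in GRCh38.p14. They were searched on both strands for TGANTCA, the letters of the AP-1 motif, which reads the same on both strands, and for GGGCGG, the GC box. AP-1 factors are known for their role in genes of epidermal keratinocytes. The window of *LAMA3* on chromosome 18 held 2 matches to TGANTCA. Of the 34943 windows of 300 bases in the table, 7.72% held at least 1 match and 0.518% held at least 2. Of the 3 windows of *LAMB3* on chromosome 1, the most downstream held 1 match and the other 2 held 0. *COL17A1*, on chromosome 10, and *ITGA6*, on chromosome 2, held 0, and 1 of the 3 windows of *DST* held 1. A match means only that these letters occur in the window. The sequences below are those of *LAMA3*, the member with the largest difference, of its chain partner *LAMB3* at its most upstream and its most downstream start, and of *COL17A1*, the member with the highest level. They are given 5′ to 3′ on the strand of the gene, with matches to TGANTCA in capitals.
LAMA3, chr18:23872770-23873069, plus strand: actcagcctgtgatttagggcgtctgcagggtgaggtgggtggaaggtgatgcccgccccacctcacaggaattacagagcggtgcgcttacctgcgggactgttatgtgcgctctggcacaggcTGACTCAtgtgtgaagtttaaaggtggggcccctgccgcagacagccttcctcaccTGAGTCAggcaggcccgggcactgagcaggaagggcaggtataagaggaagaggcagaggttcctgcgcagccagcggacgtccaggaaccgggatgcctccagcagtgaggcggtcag
LAMB3, most downstream start, chr1:209651325-209651624, minus strand: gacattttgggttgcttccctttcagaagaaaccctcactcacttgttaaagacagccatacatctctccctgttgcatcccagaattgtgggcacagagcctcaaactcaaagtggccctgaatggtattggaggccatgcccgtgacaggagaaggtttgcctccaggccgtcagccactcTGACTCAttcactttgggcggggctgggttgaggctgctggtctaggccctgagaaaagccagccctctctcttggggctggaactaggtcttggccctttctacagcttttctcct
LAMB3, most upstream start, chr1:209652376-209652675, minus strand: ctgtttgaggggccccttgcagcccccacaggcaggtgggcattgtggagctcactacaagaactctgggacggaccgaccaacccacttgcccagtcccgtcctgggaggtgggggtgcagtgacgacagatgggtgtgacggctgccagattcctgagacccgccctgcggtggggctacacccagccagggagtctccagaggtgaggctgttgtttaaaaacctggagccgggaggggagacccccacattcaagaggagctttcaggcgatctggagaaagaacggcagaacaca
COL17A1, chr10:104085831-104086130, minus strand: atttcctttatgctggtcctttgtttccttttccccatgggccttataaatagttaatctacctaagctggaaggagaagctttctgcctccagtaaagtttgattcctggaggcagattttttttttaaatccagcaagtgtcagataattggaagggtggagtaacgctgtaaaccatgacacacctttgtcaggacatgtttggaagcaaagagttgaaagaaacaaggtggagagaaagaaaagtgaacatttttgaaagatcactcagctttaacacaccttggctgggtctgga

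The matches in the *LAMA3* window begin 125 and 69 bases before the start site and that in the downstream window of *LAMB3* begins 67 bases before it. The *LAMA3* window lies inside the gene as GENCODE gives it, and its 250 bases before the start site touch 0 exonic bases of the gene. The start site is that of a shorter transcript that begins far downstream of the first start of the gene. The downstream window of *LAMB3* is also inside the gene, and 20 of its 250 bases before the start site are exonic. The windows of *COL17A1* and of the upstream start of *LAMB3* precede the genes and belong to their MANE Select transcripts. The GC box was found in 44.9% of all windows, in the 3 windows of *LAMA3* and *LAMB3* printed here and not in that of *COL17A1*. The gene values pool all transcripts, so they do not show which of these start sites was used.

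In order of level per length, *COL17A1* came first with a mean of 735 FPKM over all libraries, followed by *ITGA6* at 677, *ITGB4* at 365, *ITGA3* at 329, *LAMB3* at 285, *CD151* at 167, *LAMA3* at 66.2, *PLEC* at 47.2 and *DST* at 38.2 FPKM. *COL17A1* ranked 103rd and *ITGA6* ranked 108th of the 12241 tested genes, and even *DST*, at rank 3208, was in the upper 26.2%. Most neighbours kept their order in all 6 libraries. Those that did not were *COL17A1* and *ITGA6*, *ITGA3* and *LAMB3*, and *PLEC* and *DST*, each pair in the order of the means in 5 of the 6 libraries. *ITGB4* lay above *ITGA3* in 6 of 6 libraries, but by a ratio of 1.03 to 1.22, which is within the spread of either gene over the WT lines. The laminin chains among the members were not at equal RNA levels, with *LAMB3* above *LAMA3* in every library.

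Within these genes the spread was wider over the WT libraries than over the KO libraries. For 6 of the 9 genes (*ITGA6*, *ITGA3*, *COL17A1*, *DST*, *PLEC* and *CD151*) all KO libraries lay inside the range of the WT libraries, as they did for 13.3% of all tested genes. The SD of the log2 values was larger over the WT than over the KO lines for 9 of 9 genes, against 43.7% of all tested genes, though for *LAMA3* the SDs were nearly equal. The median SD of the members was 0.33 over WT and 0.13 over KO lines on the log2 scale, whereas the medians over all tested genes were 0.20 and 0.23. The genes share the same 3 WT lines, so these counts are not independent observations. Leaving out 1 library at a time gave 6 to 9 genes with the larger SD in WT, from 6 genes against 24.2% of all tested genes without WT replicate 2 to 9 genes against 58.2% without KO replicate 3. The count of genes with KO inside the WT range rested on WT replicates 2 and 3, as it was 1 without WT replicate 2, against 3.11% of all tested genes, and 3 without WT replicate 3, against 6.55%. Without WT replicate 2 the KO libraries lay above WT for *ITGA3*, *LAMA3* and *CD151*, and without WT replicate 3 they did so for *LAMA3* and *PLEC*. Of all tested genes, 27.1% and 28.4% showed this pattern in the same libraries, so these counts are near the background.

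WT replicates 2 and 3 lay on opposite sides of the mean of the 6 libraries for all members but *ITGB4* and *LAMA3*, which were below it in both, and the members did not share 1 direction. *ITGA6* was 1.82 times, *DST* 1.89 times and *COL17A1* 1.59 times as high in WT replicate 3 as in WT replicate 2. *CD151*, *LAMB3* and *ITGA3* went the other way, at 0.577, 0.636 and 0.737 times the level of WT replicate 2. The remaining differences were smaller, with ratios of 1.18 for *PLEC*, 1.08 for *LAMA3* and 0.823 for *ITGB4*. In log2 terms the difference of *ITGA6* was 0.86 and that of *CD151* was -0.79, while the median absolute difference of all tested genes between these libraries was 0.30. That of *DST* was larger than the differences of 89.0% of tested genes, and that of *LAMA3* larger than those of 21.1%. As 5 members were higher and 4 lower, the mean of the 9 centred profiles was nearly flat, from -0.06 to 0.07 on the log2 scale. The summed FPKM of the 10 suprabasal keratinocyte markers, most of it from *KRT1* and *KRT10*, were 3693, 1469 and 7601 in the WT lines by replicate number, against 4866, 2064 and 501 in the KO lines. Of these markers, 9 had a mean of at least 0.5 FPKM and 0 were at 0 in all libraries. This sum was low in WT replicate 2 and high in WT replicate 3, as *ITGA6*, *COL17A1* and *DST* were, and its part in their levels was not tested. The match did not extend to every library or marker. In KO replicate 1, where the sum was the highest of the KO lines, *DST* had its lowest KO value. *COL17A1* had its highest KO value in KO replicate 2, at 772 FPKM, against 714 FPKM in KO replicate 1. The marker *IVL* was at 324 FPKM in WT replicate 2 and at 180.3 FPKM in WT replicate 3. The fibroblast markers summed to 7.99, 15.3 and 33.2 FPKM in the WT libraries from lowest to highest and to 6.92 to 12.6 FPKM in KO, with 6 of 8 below a mean of 0.5 FPKM. Of the 33.2 FPKM, found in WT replicate 2, *COL1A1* made up 16.7 FPKM and *DCN* 15.5 FPKM. Over all libraries *COL1A1* was at 6.82 to 16.7 FPKM. The melanocyte markers summed to 3.06 to 5.58 FPKM in WT and 1.24 to 4.86 FPKM in KO, with 5 of 7 below a mean of 0.5 FPKM. *SOX10* was at 0 in all libraries, while *MITF* was at 0.529 to 4.01 FPKM and *PMEL* at 0.697 to 2.43 FPKM.

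**Figure D3:**
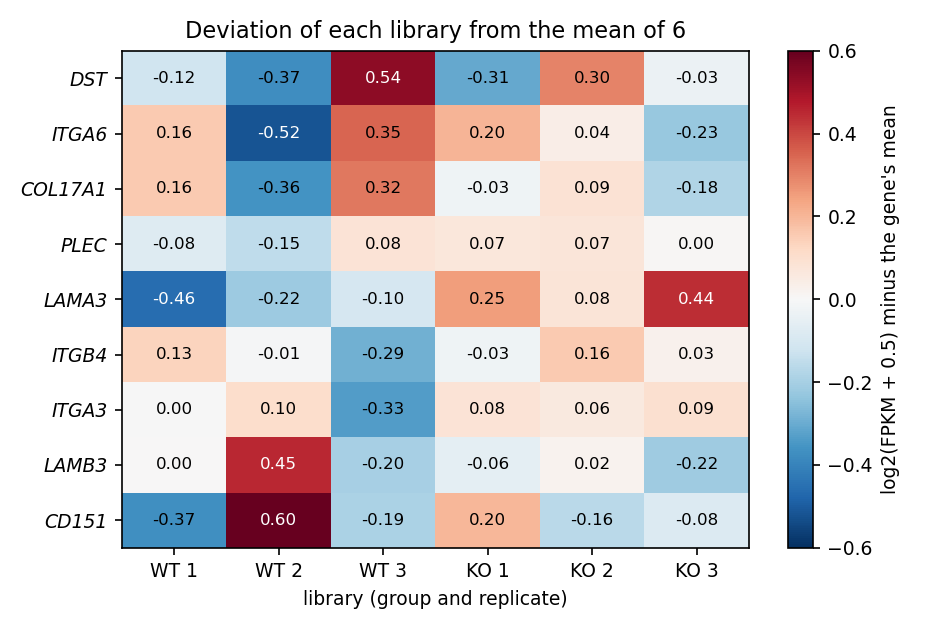
Deviation of each library from the mean of the 6 libraries for each of the 9 genes (colour and printed value: log2(FPKM + 0.5) minus the mean of the gene; rows: genes; columns: libraries). In WT 2, ITGA6 lies at -0.52 and CD151 at 0.60, and in WT 3 they lie at 0.35 and -0.19, while only LAMA3 separates the WT columns from the KO columns.

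Among the members, the profiles over the 6 libraries that were most alike were those of *ITGB4* and *ITGA3*, with a root mean square distance of 0.0996 on the log2 scale, and those of *ITGA6* and *COL17A1*, with 0.118. *ITGB4* and *ITGA3* both lie on chromosome 17, whose 757 tested genes had a median deviation of -0.29 in WT replicate 3, where *ITGB4* was at -0.29 and *ITGA3* at -0.33. The part of this shift in their likeness was not tested. *CD151* was nearest to *LAMB3*, at 0.214, and farthest from *DST*, at 0.578. The hemidesmosomal integrin chains were thus each nearer to another member than to each other. Every member had a still nearer gene outside the list, at distances of 0.0177 to 0.0773. The tested genes outside the list that lay nearest to the mean profile of the 9 members were *RIPK1* (distance 0.0275), *RNF123* (0.0283), *THOC2* (0.0290), *ZNF322* (0.0298) and *PTGR2* (0.0306). As that mean profile was nearly flat, these are genes with little variation over the libraries. *RIPK1*, for example, ranged from 14.4 to 16.3 FPKM.

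Ratios of partner genes within a library do not depend on how the libraries were scaled. The ratio of *ITGA6* to *ITGB4* was 1.86, 1.29 and 2.84 in WT and 2.15, 1.68 and 1.53 in KO. It differed by -0.10 in mean log2 (exact permutation test, p = 0.8), and the KO values lay inside the WT range. The ratio of *LAMA3* to *LAMB3* was 0.167, 0.145 and 0.247 in WT and 0.286, 0.240 and 0.365 in KO. The KO mean was 0.69 higher in log2 (exact permutation test, p = 0.2), and only KO replicate 2 fell below a WT library.

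The remaining ratios overlapped between the groups. *COL17A1* to *ITGB4*, the membrane proteins that both bind plectin, gave 2.04, 1.57 and 3.04 in WT and 2.004, 1.91 and 1.73 in KO, a log2 difference of -0.19 (exact permutation test, p = 0.7). *DST* to *PLEC* gave 0.766, 0.675 and 1.08 in WT and 0.606, 0.923 and 0.767 in KO, a difference of -0.13 (exact permutation test, p = 0.7). *ITGA3* to *ITGA6*, the α chains of the laminin-332 receptors, gave 0.441, 0.758 and 0.307 in WT and 0.453, 0.499 and 0.617 in KO, a difference of 0.15 (exact permutation test, p = 0.8). In *COL17A1* to *ITGB4* WT replicate 2 was the lowest and WT replicate 3 the highest, and in *ITGA3* to *ITGA6* it was the reverse. In *DST* to *PLEC* WT replicate 3 was the highest.

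No gene of the structures to which the members connect was called, as no tested gene was, *FGFR2* included. The lack of a call therefore does not show that they were unchanged. *KRT5* and *KRT14*, the basal keratins to which the plakins attach, had log2 fold changes of 0.41 (SE 0.35, limma adjusted p = 0.555) and 0.40 (SE 0.39, limma adjusted p = 0.608). For both, KO replicate 1 was the highest library, with 14768 FPKM for *KRT5* and 8652 FPKM for *KRT14*. *KRT15*, another basal keratin among the markers, went the other way (log2 fold change -0.96, limma adjusted p = 0.296). It was at 4432, 5188 and 2200 FPKM in WT and at 1737, 2937 and 1352 FPKM in KO. Of the 9 basal markers, 6 had a higher and 3 a lower mean in KO. *COL7A1*, the collagen of the anchoring fibrils below laminin-332, was at 76.5, 94.7 and 97.5 FPKM in WT and at 118, 130 and 96.4 FPKM in KO (log2 fold change 0.36, limma adjusted p = 0.321). *ITGB1*, the β chain that pairs with the α3 chain, was at 125, 138 and 122 FPKM in WT and at 102, 112 and 147 FPKM in KO (log2 fold change -0.10, limma adjusted p = 0.766).

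Of 91 further genes of cell and matrix adhesion in 5 lists, 72 were tested and 0 were called, as no tested gene was. At the unadjusted threshold 8 of the 72 were higher and 5 lower, next to 10.2% and 2.33% of all tested genes. Their median log2 fold change was -0.06, compared with 0.01 for the 9 members and 0.09 for all tested genes. Individual genes of these lists differed by more than any member. Among 18 tested genes of other laminins and the basement membrane, *COL4A1*, a chain of type IV collagen, had a log2 fold change of 1.39, with 10.6, 4.06 and 18.2 FPKM in WT and 19.5, 21.2 and 38.7 FPKM in KO. *COL18A1* was at 1.12 and *SPARC*, a matrix protein of very variable level here, at -1.39. Among 10 other integrin subunits, *ITGA5* was at 0.95, *ITGB5* at 0.64 and *ITGB6* at -0.51, the last with 20.5, 20.5 and 15.4 FPKM in WT and 13.3, 13.3 and 12.2 FPKM in KO. In the list of 25 focal adhesion plaque genes, *ACTN1* (0.86) and *FLNA* (0.88), which bind and crosslink actin, were higher in every KO than in every WT library. *ACTN1* was at 84.8, 84.7 and 79.7 FPKM in WT and at 133, 123 and 209 FPKM in KO. *TNS1*, at -1.41 (SE 0.898), was the other gene named from this list. It was at 4.30, 14.4 and 4.195 FPKM in WT and at 4.85, 5.23 and 0.0831 FPKM in KO. KO replicates 1 and 2 lay above WT replicates 1 and 3, so its fold change rested on WT replicate 2 and KO replicate 3. The 14 tetraspanins and further laminin receptors included *TSPAN4* (0.93), *CD81* (0.73) and *TSPAN14* (-0.55), the last with 51.1, 52.6 and 51.6 FPKM in WT and 31.1, 42.2 and 33.6 FPKM in KO. The 5 tested proteases that process laminin-332 or the matrix had a median of -0.28, with *PLAU*, the urokinase gene, at -1.13, *MMP2* at 0.59 and *PLAT* at -0.49. *PLAU* was at 49.7, 98.8 and 35.2 FPKM in WT and at 34.6, 27.8 and 16.7 FPKM in KO. *PLAT* was at 0.154, 3.87 and 0.126 FPKM in WT and at 0.369, 0.399 and 0.322 FPKM in KO, so its lower mean rested on WT replicate 2. The plot of the lists places the 9 members between -0.17 and 0.52, inside the spread of the other adhesion genes.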

How the data were processed

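The authors sequenced poly(A)-selected RNA, trimmed the reads with fastp 0.20.0 and quantified them with kallisto 0.46.1 against GRCh38.p13, tool versions and build being those of the submitters' processing notes. The deposited values are FPKM per gene and library. How the FPKM were computed from the kallisto output is not given in the sources used here. Of 21493 rows, 18 Y copies of pseudoautosomal genes were left out. Symbols and positions of 21400 of the 21475 genes come from GENCODE release 44.

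The 12241 genes whose mean reached 0.5 FPKM were compared on log2(FPKM + 0.5) with limma 3.58.1 in R 4.3.3, with a mean-variance trend and Benjamini-Hochberg adjustment over all tested genes. Fold changes on this scale understate differences of low genes. A call required an adjusted p of 0.05 or less and a log2 fold change of 0.5 or more in size. The fit was tested on simulated data with the same fixed spread for all genes. That test does not show how the fit performs with the spread between these lines. Single ratios were compared with exact two-sided permutation tests. A count test was not run, since the values are not counts. Depth was estimated from the steps between low values of genes with 1 annotated transcript, of which 71.2% to 75.5% were whole fragments within 0.05. It is therefore approximate, and whole reads were not recovered.

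All members, *FGFR2*, partner genes of the members (1 of which is not reported here), the 3 tested genes with the largest absolute fold change in each further list and the 5 genes nearest to the mean member profile are named. Further genes were picked with their values in view. The members and lists were chosen with earlier results of these data known. Replicate numbers did not pair the samples (correlations of the deviations of same-numbered lines -0.21, 0.22 and 0.05). Alternatives were other pseudocounts, filters, scalings and empirical Bayes settings, library weights, removal of chromosome medians, a replicate block and leaving out each library.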

Additional observations from a re-analysis of the deposited data

How the results depend on the processing

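Across 18 alternatives, *LAMA3* was higher in KO in each, by 0.40 to 0.66 on the log2 scale, with limma adjusted p from 0.0314 to 0.634. It passed the threshold with library weights alone (0.66), a setting that called 1396 genes, 1160 higher and 236 lower, among them 1 member and 10 genes of the other lists, and *FGFR2* at -2.66 (adjusted p = 0.0191). These weights rested on WT replicate 1, weighted 10.26 against 0.358 and 0.818 for WT replicates 2 and 3. The other 17 alternatives called 0 genes. With 1251 genes higher and 285 lower at the unadjusted threshold in the reported analysis, median-of-ratios scaling gave 785 and 521, quantile normalization 803 and 502 and removal of chromosome medians 762 and 492, the median of all genes moving from 0.09 to -0.02 with median-of-ratios scaling.

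The signs of the small differences were not stable. The members' median was -0.11 with median-of-ratios scaling, -0.080 with chromosome medians removed and 0.046 to 0.12 leaving out 1 library. TPM scaling turned *DST* (0.0080) and *CD151* (0.010). Median-of-ratios scaling turned *ITGA6* (-0.11), *ITGB4* (-0.0075) and *PLEC* (-0.016), and quantile normalization *ITGA6* (-0.040) and *PLEC* (-0.017). Library weights turned *ITGA6* (-0.052), *ITGB4* (-0.072) and *CD151* (0.39). Removal of chromosome medians turned *ITGA6* (-0.12), *ITGB4* (-0.080), *ITGA3* (-0.031), *COL17A1* (0.074) and *PLEC* (-0.12). Leaving out 1 library gave -0.25 to 0.18 for *ITGA6*, -0.010 to 0.20 for *ITGB4*, -0.28 to 0.059 for *COL17A1*, -0.31 to 0.016 for *LAMB3*, -0.22 to 0.23 for *DST* and -0.22 to 0.27 for *CD151*. The log2 differences of the ratios ranged over -0.38 to 0.19 for *ITGA6* to *ITGB4*, 0.53 to 0.91 for *LAMA3* to *LAMB3*, -0.41 to 0.069 for *COL17A1* to *ITGB4*, -0.27 to 0.069 for *DST* to *PLEC* and -0.16 to 0.50 for *ITGA3* to *ITGA6*, where leaving out WT replicate 3 turned all but *LAMA3* to *LAMB3*. Leaving out 1 library for the counts of members with KO inside the WT range (1 to 7, against 3.11% to 24.7% of all genes), above WT (1 to 3, against 19.7% to 31.4%) and with the larger SD in WT (6 to 9) was added after the data were seen.

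With the replicate number as a block, 0 genes were called (smallest adjusted p 0.0972, with 1336 higher and 426 lower at the unadjusted threshold), *LAMA3* had an adjusted p of 0.168 and the members' median was 0.01. Not every library correlated best with its own number. With 3 lines per group, exact tests cannot fall below p = 0.1.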

Other observations

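*LAMA5*, encoding the α chain of laminin-511, was the most abundant laminin chain of the libraries per length and stood above *LAMA3* in all of them. It was at 398, 568 and 399 FPKM in WT replicates 1, 2 and 3 and at 456, 423 and 327 FPKM in KO replicates 1, 2 and 3, and the groups overlapped. *BCAM*, a receptor for laminins that contain the α5 chain, was at 602, 458 and 627 FPKM in WT and at 467, 738 and 464 FPKM in KO. Both were chosen after their values were seen.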
